A study of Mus musculus with 37 samples.

Results

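Receptors of the interleukin-6 (IL-6) family and the STAT3 feedback genes, 9 genes in all, were followed in mouse liver after partial hepatectomy. They were chosen by symbol: the receptors Il6ra, Il6st, Osmr and Lifr, the transcription factor Stat3, and the STAT3-responsive genes Socs3, Socs1, Bcl3 and Pim1. Each symbol had 1 row in the table of 55487 genes, and all 9 genes passed the filter on low counts. RNA-seq of whole liver had been run on 37 libraries, from mice without Nox4 (NOX4-/-, called KO here) and from wild-type (WT) mice. Nox4 is an NADPH oxidase that makes hydrogen peroxide. The KO groups held 3 livers taken 6 h after partial hepatectomy, 4 taken at 24 h, 4 at 48 h, 3 at 7 d, and 5 livers from sham operations. The WT groups held 3, 3, 4, 3 and 5 livers at the same stages. The KO sham livers were taken 24, 48, 48, 72 and 6 h after the operation, as replicates 1 to 5 in that order. The WT sham livers were taken at 7 d and at 48, 24, 48 and 6 h, so replicate 5 of each sham group is its only 6 h liver. All 6 hepatectomy livers at 6 h and both sham livers at 6 h were male, whereas every other hepatectomy group mixed males and females. Strain, age and the kind of Nox4 deletion are not given in the sources used here, and the labels do not say whether each library is a separate mouse. The p-values therefore measure the spread between these libraries.

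Cytokines of the IL-6 family signal through the shared receptor subunit gp130, encoded by Il6st. IL-6 binds its own receptor IL-6R (Il6ra), leukaemia inhibitory factor binds LIFR (Lifr), and in mice oncostatin M acts mainly through OSMR (Osmr), each paired with gp130. JAK kinases bound to the receptors phosphorylate STAT3, which enters the nucleus and turns on target genes. Among these targets are SOCS3, which binds gp130 and the JAKs and ends the signal, and SOCS1, which inhibits JAKs directly. BCL3, an atypical IκB protein, pairs with NF-κB p50 and p52, and PIM1 is a serine/threonine kinase of survival and growth signalling. In the liver, IL-6 from Kupffer cells, the resident macrophages, is known to activate STAT3 in hepatocytes within hours of hepatectomy. Much of this control acts on protein phosphorylation, which RNA-seq does not measure.

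The promoters of the 4 genes called higher at 6 h in WT livers are printed to show what lies around their starts. Each is a window of 300 bases, from 250 before to 50 after the start, from RefSeq on build GRCm38.p6, and 5′ to 3′ on the gene's own strand. Capitals mark a match to TTCNNNGAA, the spaced palindrome of STAT sites, searched on both strands, as was TTCNNNNGAA with its longer spacer. The Socs3 window, on the minus strand at chr11:117969317-117969616, held TTCTTAGAA with its first base at position -154, where -1 is the base before the start. The Stat3 window lies at chr11:100939491-100939790, the Bcl3 window at chr7:19822706-19823005 and the Osmr window at chr15:6874264-6874563, all on the minus strand.
Socs3: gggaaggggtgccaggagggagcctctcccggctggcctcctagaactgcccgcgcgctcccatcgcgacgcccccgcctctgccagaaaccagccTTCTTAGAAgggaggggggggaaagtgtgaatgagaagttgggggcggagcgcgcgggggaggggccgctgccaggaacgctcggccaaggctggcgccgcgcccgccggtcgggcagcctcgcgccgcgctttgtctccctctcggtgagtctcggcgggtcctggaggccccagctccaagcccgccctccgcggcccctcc
Stat3: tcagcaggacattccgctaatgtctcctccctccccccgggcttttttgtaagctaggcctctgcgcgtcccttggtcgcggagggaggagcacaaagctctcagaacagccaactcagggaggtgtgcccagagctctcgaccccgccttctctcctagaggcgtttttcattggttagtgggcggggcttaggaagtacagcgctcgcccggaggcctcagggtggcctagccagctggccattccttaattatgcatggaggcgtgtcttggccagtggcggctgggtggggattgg
Bcl3: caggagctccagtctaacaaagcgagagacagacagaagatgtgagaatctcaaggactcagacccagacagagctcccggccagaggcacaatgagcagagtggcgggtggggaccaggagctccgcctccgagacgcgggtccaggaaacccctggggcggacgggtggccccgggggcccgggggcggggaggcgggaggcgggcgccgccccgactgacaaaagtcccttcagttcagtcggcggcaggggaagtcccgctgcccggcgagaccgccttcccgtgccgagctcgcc
Osmr: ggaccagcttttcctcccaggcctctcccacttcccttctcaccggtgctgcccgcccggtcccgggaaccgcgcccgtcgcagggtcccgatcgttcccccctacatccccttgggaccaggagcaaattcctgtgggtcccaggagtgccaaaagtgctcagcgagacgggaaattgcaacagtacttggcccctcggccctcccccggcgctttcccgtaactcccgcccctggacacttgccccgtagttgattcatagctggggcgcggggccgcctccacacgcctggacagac
The starts of Socs3 and Osmr in RefSeq lie inside the longer genes of GENCODE. The other 3 windows held neither spacing, nor did the windows of the other 5 genes, of which Lifr and Pim1 have 2 each. Of 32851 RefSeq promoter windows of this length, 8.3% held TTCNNNGAA and 6.95% held TTCNNNNGAA, and a window without these letters says nothing of sites elsewhere. The Socs3 window was rich in G and C (73.3%), against a median of 52.7% over all windows.

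Nox4 itself averaged 2.82 log2 units lower in KO than in WT livers over the 5 stages (SE 0.28, edgeR adjusted p = 4.27e-08). Yet the libraries overlapped, at 0 to 4.98 CPM (counts scaled to the effective library size) in KO livers and 0.778 to 23.5 CPM in WT livers. Female livers alone did not overlap, at 0 to 0.245 CPM in KO and 0.778 to 3.36 CPM in WT livers. Male livers did, at 0.325 to 4.98 CPM in KO and 3.95 to 23.5 CPM in WT livers. The labels do not give the deleted exons, so a count over the whole gene checks the labels only in part. Libraries held 26232544 to 48827025 counts. The first principal component, with 26.08% of the variance, put KO 24 h replicate 1 at -26.81 and replicates 2 to 4 at 90.63 to 122.12, and WT 24 h livers at -32.81 to 0.66. Replicate 1 of the KO 24 h group therefore stood apart from its group, near the WT livers of that stage and also among later KO sham livers (-50.99 to -15.36). Its Nox4 was 1 count (0.0352 CPM), within the 0 to 1.69 CPM of KO livers at 24 h. The lowest WT liver of that stage had 0.778 CPM. Without replicate 1, 5452 genes were called between the genotypes at 24 h, against 2891 with it. Values without it are given beside the 24 h results of the 9 genes that they change, and as counts or values for the lists. Since replicate 1 was singled out from these same data for lying near the WT livers, leaving it out favours larger differences. Values without it are therefore no independent support. The sham livers at 6 h stood apart from later sham livers in most of the genes described here. Results of the 9 genes at 6 h are therefore given against all sham livers, against later ones and against the 6 h ones. Results of the lists are given against all sham livers and against later ones.

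Per kilobase of exon, which allows levels of different genes to be set side by side, the receptors differed widely. In the 8 sham livers taken at 24 h or later, Lifr stood at 18.65 ± 5.05 CPM per kb (SD, n = 8), the highest of the genes described. Bcl3 at 11.99 ± 2.62, Stat3 at 10.76 ± 2.08 and Il6st at 8.46 ± 2.41 CPM per kb came next. Socs3 at 6.64 ± 3.60, Il6ra at 4.98 ± 2.36 and Pim1 at 3.22 ± 1.26 CPM per kb followed, and Socs1 at 0.235 ± 0.082 and Osmr at 0.151 ± 0.028 CPM per kb came last. The ranges of mean ± SD of neighbours in this order overlapped, except those of Pim1 and Socs1. Osmr and Socs1 were the scarcest of the set, with Socs1 resting on 6 to 35 counts in the WT livers at 24 h. In the plot of group means per kilobase, Socs3, Bcl3 and Stat3 lay above Lifr at 6 h, with Socs3 at 48.2 ± 9.6 CPM per kb in KO livers and 94.3 ± 9.2 CPM per kb in WT livers, against 20.9 ± 1.6 and 23.7 ± 3.6 CPM per kb for Lifr (SD, n = 3 each).

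**Figure D1:**
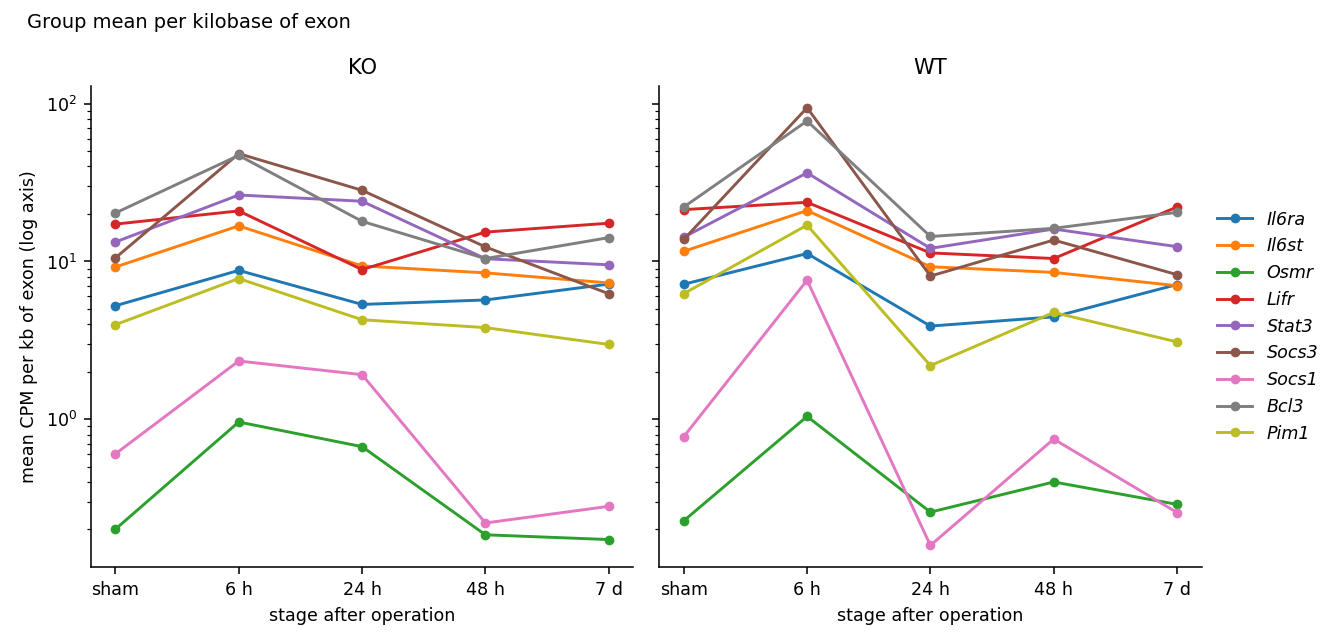
Group mean level of each gene in CPM per kilobase of exon (log axis) by stage, KO livers on the left and WT livers on the right, each line 1 gene and each point a mean of 3 to 5 livers. Osmr and Socs1 lie lowest in the sham livers of both genotypes, and Socs3, Bcl3 and Stat3 lie above Lifr at 6 h.

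**Figure D2:**
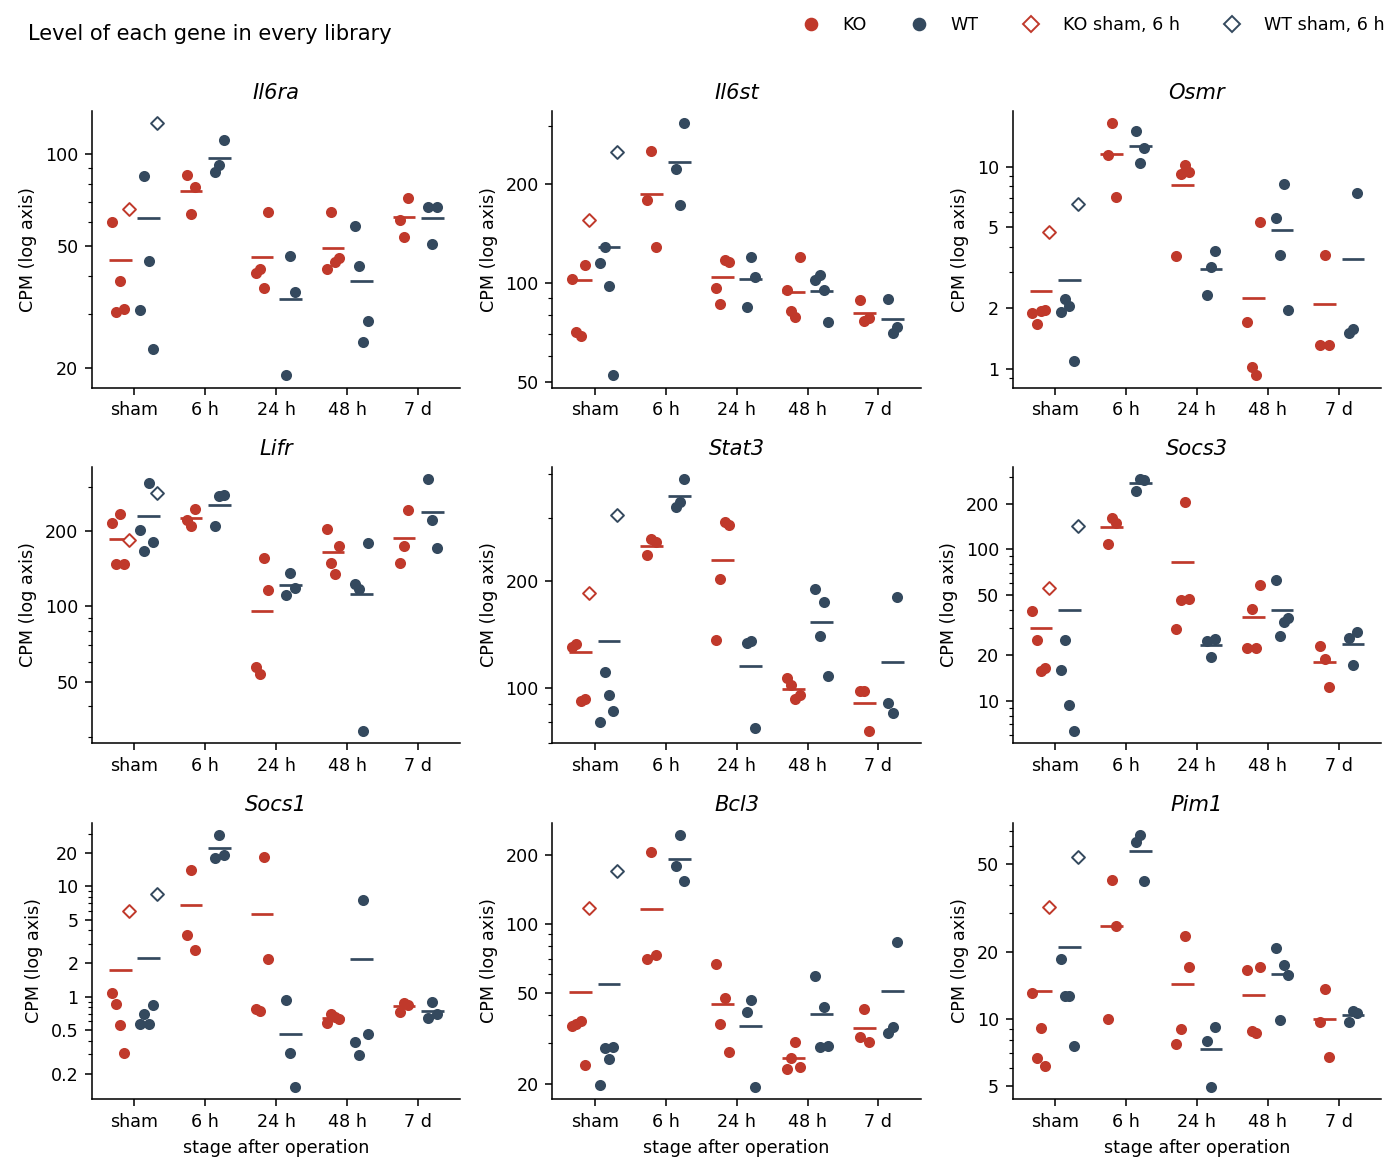
CPM of each gene in every library (log axis, 1 panel a gene), by stage, with KO livers left of WT livers, horizontal bars for group means and open diamonds for the sham livers taken at 6 h. The open diamonds lie above all other sham livers of their genotype in every panel but Lifr, and KO 24 h replicate 3 stands alone for Socs3 and Socs1.

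At 6 h after hepatectomy Osmr was the only receptor called against all sham livers, and the receptors were not tested against each other. Osmr rose in both genotypes, while Il6ra, Il6st and Lifr did not pass the test against all sham livers. Against later sham livers, given below, Il6st also passed in both genotypes and Il6ra in WT livers. Osmr stood at 11.4, 16.4 and 7.10 CPM in KO livers at 6 h, against 1.88, 1.66, 1.92, 1.95 and 4.76 CPM in KO sham livers. It stood at 15.0, 10.5 and 12.4 CPM in WT livers at 6 h, against 1.90, 2.21, 2.05, 1.09 and 6.51 CPM in WT sham livers. In both genotypes every hepatectomy liver lay above every sham liver, and the highest sham value was that of the 6 h sham. The log2 change was 2.24 in KO livers (SE 0.60, edgeR adjusted p = 0.0207) and 2.17 in WT livers (SE 0.60, adjusted p = 0.025). Osmr was called in only 4 of 8 fits that left out 1 KO library, with adjusted p between 0.0514 and 0.0778 without KO 6 h replicate 1 or 2 or KO sham replicate 1 or 4. In WT livers it lost the call without WT 6 h replicate 1 or 3 or any one of WT sham replicates 1 to 4, with adjusted p between 0.0501 and 0.106.

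Lifr, the partner of gp130 for leukaemia inhibitory factor, stayed within the sham range in most livers at 6 h. Its CPM was 221.3, 210.2 and 244.8 in KO livers at 6 h, against 147.4 to 233.7 in KO sham livers. It was 210.3, 277.2 and 279.2 in WT livers at 6 h, against 166.6 to 311.7 in WT sham livers. The groups overlapped in both genotypes, and the log2 changes of 0.26 (95% interval -0.45 to 0.97) in KO and 0.13 (-0.59 to 0.85) in WT livers turn below 0 when CPM are taken on the library total without TMM scaling. The ratio of Osmr to Lifr per kilobase was 0.047 ± 0.022 in KO livers at 6 h and 0.0119 ± 0.0064 in KO sham livers (SD, n = 3 and 5). In WT livers the ratio was 0.0455 ± 0.0158 at 6 h and 0.0103 ± 0.0062 in sham livers. Lifr remained the more abundant transcript of the pair in every group.

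Il6st, the shared subunit, had 179.2, 251.6 and 129.1 CPM in KO livers at 6 h, against 103.2, 70.8, 68.9, 113.7 and 155.3 CPM in KO sham livers. In WT livers it had 222.1, 172.3 and 305.4 CPM at 6 h, against 115.0, 128.4, 98.3, 52.6 and 249.3 CPM in sham livers. The ranges overlapped only through the 6 h sham liver in each genotype, and neither log2 change, 0.82 in KO and 0.79 in WT livers, passed the test (adjusted p = 0.102 and 0.114). Il6ra, the IL-6-binding chain, averaged 75.8 ± 11.1 CPM in KO livers at 6 h and 45.3 ± 16.8 CPM in KO sham livers (SD, n = 3 and 5). It averaged 97.1 ± 12.6 CPM in WT livers at 6 h and 62.0 ± 43.1 CPM in WT sham livers. The highest WT sham value, 126.2 CPM in the 6 h sham, lay above all 3 WT hepatectomy livers.

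Stat3 passed the test at 6 h in WT livers and not in KO livers. Its CPM was 235.8, 261.5 and 256.8 in KO livers at 6 h, against 130.0, 132.6, 91.8, 93.1 and 184.9 in KO sham livers. It was 322.0, 333.6 and 386.3 in WT livers at 6 h, against 80.1, 110.8, 95.6, 86.0 and 306.7 in WT sham livers. In both genotypes all hepatectomy livers lay above all sham livers, with the 6 h sham next below them. The log2 change was 0.89 in KO livers (SE 0.33, edgeR adjusted p = 0.102) and 1.23 in WT livers (SE 0.33, adjusted p = 0.0219). The WT call was lost without WT 6 h replicate 3 or WT sham replicate 1, 3 or 4, with adjusted p between 0.0516 and 0.132.

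Of the genes that respond to STAT3, Socs3 rose in both genotypes. Its CPM was 108.1, 160.5 and 149.9 in KO livers at 6 h, against 39.1, 25.4, 15.8, 16.6 and 55.4 in KO sham livers. It was 241.8, 289.0 and 286.9 in WT livers at 6 h, against 15.9, 25.1, 9.43, 6.35 and 142.6 in WT sham livers. No sham liver reached a hepatectomy liver of its genotype. The log2 change was 1.93 in KO livers (SE 0.60, edgeR adjusted p = 0.0482) and 2.56 in WT livers (SE 0.60, adjusted p = 0.00965). The KO call lay at the threshold and held in 1 of 8 fits that left out 1 library, that without KO sham replicate 5 (adjusted p = 0.0366), with adjusted p between 0.0656 and 0.124 in the others. The WT call was lost without WT 6 h replicate 3 (adjusted p = 0.0649). Relative to Stat3, Socs3 stood at 1.82 ± 0.27 times the Stat3 level per kilobase in KO livers at 6 h and 0.752 ± 0.218 times in KO sham livers. In WT livers the ratio was 2.59 ± 0.23 at 6 h and 0.700 ± 0.511 in sham livers, where the 6 h sham reached 1.53.

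In KO livers Bcl3 had 69.9, 206.3 and 73.0 CPM at 6 h, against 35.9, 36.6, 37.6, 24.3 and 116.8 CPM in sham livers. Replicate 2 stood far above the other KO livers at 6 h, the groups overlapped, and the log2 change of 1.07 did not pass (SE 0.53, edgeR adjusted p = 0.239). Bcl3 rose in WT livers, where it had 179.3, 243.7 and 154.3 CPM at 6 h, against 19.8, 28.7, 25.8, 28.9 and 170.7 CPM in sham livers. The 6 h sham liver lay within the range of the hepatectomy livers, and the other 4 sham livers lay far below. The log2 change was 1.66 (SE 0.53, edgeR adjusted p = 0.0495), and leaving out any one of the 3 hepatectomy livers or of sham replicates 1 to 4 ended the call, with adjusted p between 0.0963 and 0.148.

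Socs1 had 3.66, 14.1 and 2.65 CPM in KO livers at 6 h, against 1.07, 0.858, 0.548, 0.309 and 5.98 CPM in KO sham livers. In WT livers it had 18.0, 29.1 and 19.3 CPM at 6 h, against 0.567, 0.701, 0.570, 0.848 and 8.58 CPM in sham livers. KO livers overlapped through the 6 h sham, all WT hepatectomy livers lay above all WT sham livers, and neither comparison passed (edgeR adjusted p = 0.321 in KO and 0.0622 in WT livers). Pim1 had 9.998, 42.4 and 26.3 CPM in KO livers at 6 h, against 13.03, 6.65, 9.07, 6.16 and 31.9 CPM in KO sham livers. In WT livers Pim1 had 62.5, 67.2 and 41.7 CPM at 6 h, against 18.7, 12.6, 12.7, 7.57 and 53.5 CPM in sham livers. The groups overlapped in both genotypes, in WT livers through the 6 h sham alone, and the log2 changes of 0.81 in KO and 1.23 in WT livers did not pass (adjusted p = 0.345 and 0.115).

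In all, 2 of the 9 genes rose at 6 h in KO livers, Osmr and Socs3, beside 4.11% of the 15564 genes tested. In WT livers 4 of 9 rose, Osmr, Stat3, Socs3 and Bcl3, beside 4.16% of all genes. None fell in either genotype.

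These counts depended on which sham livers were used. The 6 h sham livers themselves, 1 of each genotype, were set against the 8 later sham livers in a fit where they formed groups of their own, a comparison added after the values had been seen. Of the 9 genes, 6 stood higher in the 6 h sham livers, beside 3.73% of all genes. Bcl3 was 2.31 log2 units higher (SE 0.37, edgeR adjusted p = 0.000394), Socs1 3.38 (SE 0.92, adjusted p = 0.0264), Socs3 2.04 (SE 0.48, adjusted p = 0.0101) and Pim1 1.81 (SE 0.40, adjusted p = 0.00658). Stat3 was 1.20 higher (SE 0.27, adjusted p = 0.00791) and Il6st 1.08 (SE 0.26, adjusted p = 0.0138). Il6ra at 1.16 and Osmr at 1.75 came close to the threshold (adjusted p = 0.0504 and 0.0605), and Lifr at 0.19 did not (95% interval -0.61 to 0.99). The comparison rests on 1 liver of each genotype, and without the WT one, sham replicate 5, no gene of the 9 passed.

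Set against later sham livers of the same genotype alone, also added after the values had been seen, 7 of 9 genes rose at 6 h in KO livers, beside 7.23% of all genes. In WT livers 8 of 9 rose, beside 10.6% of all genes. These comparisons use the same later sham livers as the comparison of 6 h sham livers, so the 3 sets of values are not independent. In KO livers Osmr changed by 2.77 log2 units (SE 0.58, edgeR adjusted p = 0.00238), Bcl3 by 1.83 (SE 0.39, adjusted p = 0.00238), Socs3 by 2.36 (SE 0.50, adjusted p = 0.00258) and Stat3 by 1.15 (SE 0.27, adjusted p = 0.00597). In WT livers the changes were 2.98 for Osmr (SE 0.61, adjusted p = 0.00109), 2.96 for Bcl3 (SE 0.41, adjusted p = 2.11e-05), 3.98 for Socs3 (SE 0.54, adjusted p = 1.72e-05) and 1.87 for Stat3 (SE 0.29, adjusted p = 5.98e-05). Il6st, Socs1 and Pim1 passed in both genotypes, with changes of 1.07, 3.29 and 1.46 in KO and 1.25, 5.03 and 1.97 in WT livers. Il6ra missed the threshold in KO livers (0.97, SE 0.35, adjusted p = 0.0711) and passed in WT livers (1.18, SE 0.38, adjusted p = 0.0281). Lifr was the 1 gene that passed in neither, at 0.27 in KO livers (95% interval -0.49 to 1.04) and 0.24 in WT livers (-0.56 to 1.04). Only 3 of the 7 KO calls held without KO 6 h replicate 2, while 7 or 8 genes were called in WT livers whichever library was left out.

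The 6 h hepatectomy livers could be set against only 1 sham liver of the same hour in each genotype, so the spread of that arm was taken from the other groups of the fit. The 95% intervals, not the lack of calls, bound how far these livers differed. Against the 6 h sham liver of the same genotype, no gene of the 9 passed in edgeR, beside 0.00643% of all genes in KO and 0.0% in WT livers. Averaged over the genotypes 0 of 9 passed as well, beside 0.141% of all genes, with 1 of 9 at an unadjusted p under 0.05 there and 0 in either genotype alone. DESeq2 called none of the 9 in these 3 comparisons. The averaged differences were largest for Socs3, at 1.13 log2 units (95% interval 0.06 to 2.21, edgeR adjusted p = 0.443), and Osmr, at 1.12 (-0.11 to 2.36). For Bcl3, Pim1, Il6st and Il6ra they lay between -0.09 and 0.08, with all intervals inside -0.93 to 0.86. For Socs1 the difference was 0.78 with a wide interval (-1.18 to 2.74). The values of Bcl3 and Pim1 in the 6 h sham livers lay within the range of the hepatectomy livers of the same genotype.

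**Figure D3:**
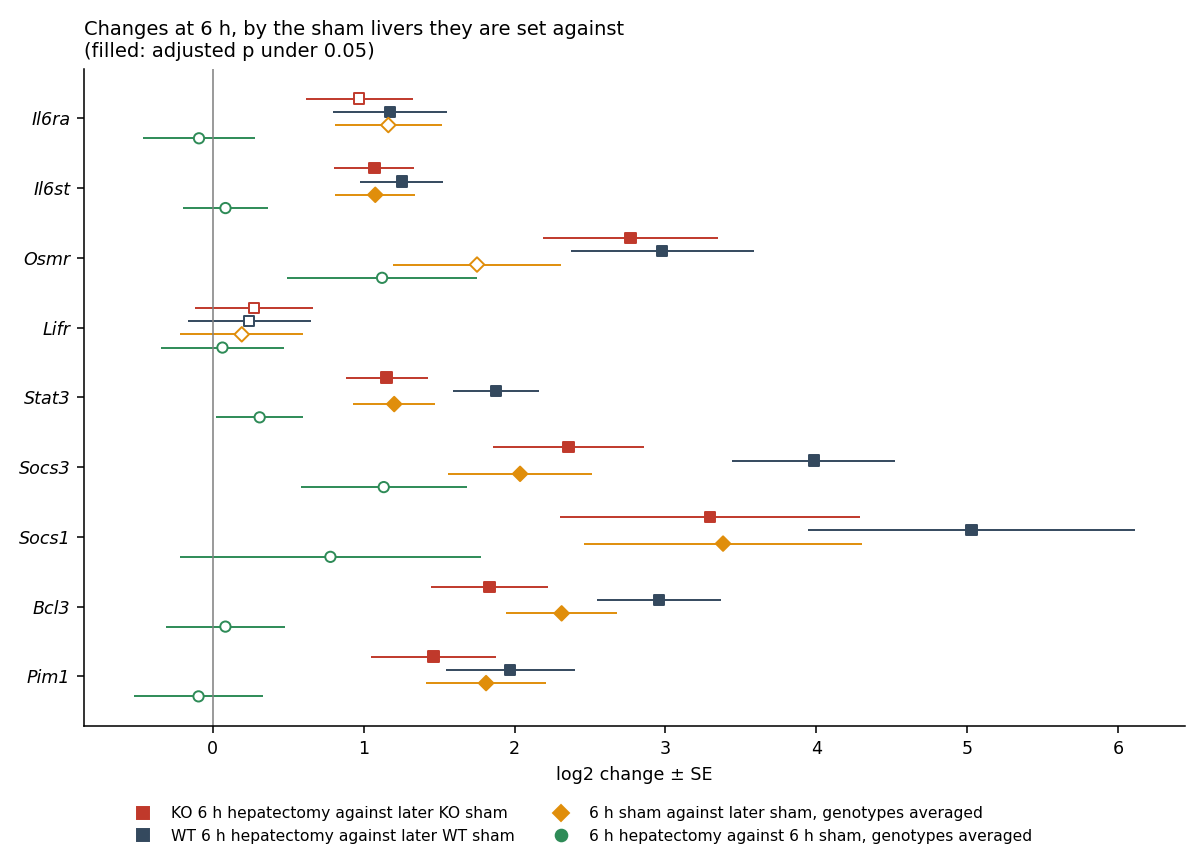
log2 change ± SE of each gene at 6 h after hepatectomy, set against later sham livers in KO and in WT livers (squares), with the 6 h sham livers against later ones (diamonds) and the 6 h hepatectomy against 6 h sham livers (circles), both averaged over the genotypes; filled points have an adjusted p under 0.05. The diamonds lie between the KO and WT squares for Il6ra, Il6st, Stat3, Bcl3, Socs1 and Pim1 and below both for Lifr, Osmr and Socs3, and all circles are open.

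Neutrophil markers moved beside these genes at 6 h. Their summed level was 12.6 to 27.7 CPM in KO livers at 6 h and 3.29 to 9.41 CPM in KO sham livers, and 28.3 to 67.5 CPM in WT livers at 6 h and 2.57 to 11.2 CPM in WT sham livers. The highest sham values, 9.41 and 11.2 CPM, were those of the 6 h sham livers. Of 5 neutrophil markers tested, 0 rose in KO livers at 6 h and 3 in WT livers (S100a8, S100a9 and Retnlg) against all sham livers. Against later sham livers, Cxcr2 and Retnlg rose in KO livers (3.71 and 2.82 log2 units), and Cxcr2, S100a8, S100a9 and Retnlg rose in WT livers (3.52 to 4.75). Kupffer cell markers summed to 107.3 to 232.3 CPM in KO livers at 6 h and 212.2 to 334.8 CPM in KO sham livers, and to 79.1 to 202.7 CPM in WT livers at 6 h and 110.9 to 471.4 CPM in WT sham livers, with 0 of 7 called in either genotype against all sham livers. The lowest WT sham value was that of the 6 h sham. Against all sham livers at 6 h the B cell list gave 1 call, a fall of Cd79a in WT livers, the cholangiocyte list 1, a rise of Sox9 in WT livers, and the exocrine pancreas list 1, a fall of Cela2a in WT livers. The hepatocyte, T and NK cell, sinusoidal and stellate lists gave 0 calls in that comparison. Against later sham livers, the hepatocyte marker Tat rose in both genotypes (1.47 in KO and 1.98 in WT livers), as did the sinusoidal marker Lyve1 (1.98 in each). The Kupffer marker Csf1r and the stellate marker Col1a1 fell in WT livers against later sham livers (-1.54 and -2.42), as did Cd79a and Cela2a, and Sox9 rose there. The 6 h sham livers against later ones, averaged over the genotypes, gave 2.58 for Cxcr2 and -3.48 for Cd79a. The part of these cells in the changes was not tested, and in whole liver fewer cells of a type and less RNA per cell cannot be told apart.

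Ligand transcripts were scarce at 6 h, and 5 of 10 ligand genes could be tested. Il6 had 43 reads in all 37 libraries together, with 19 libraries at 0 and at most 9 reads in 1 library, and Osm had 127 reads, 53 of them in 1 WT liver at 6 h. Lif was tested and rose in both genotypes. It stood at 1.26, 0.0299 and 0.900 CPM in KO livers at 6 h, against 0 in 4 KO sham livers and 0.0386 CPM in the other (edgeR adjusted p = 0.00396). It stood at 0.148, 0.796 and 0.325 CPM in WT livers at 6 h, against 0 to 0.0518 CPM in WT sham livers (adjusted p = 0.0204). Lif in KO 6 h replicate 2 rested on 1 read and did not stand above the sham livers. Against later sham livers only, Ebi3 fell in KO livers at 6 h (-1.64) and Ctf1 in WT livers (-1.17).

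At 24 h the genotypes were compared directly and each with its sham livers. In KO livers Osmr and Stat3 rose (2 of 9, beside 15.9% of all genes) and Lifr fell (1 of 9, beside 12.0%). In WT livers none of the 9 passed in edgeR, beside 0.925% of all genes, with 3 at an unadjusted p under 0.05 and 1 called by DESeq2. The share of members called in KO livers is therefore near that of the transcriptome.

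Osmr stood at 3.62, 9.18, 10.3 and 9.41 CPM in KO livers at 24 h, against 1.66 to 4.76 CPM in KO sham livers. It stood at 2.32, 3.20 and 3.84 CPM in WT livers at 24 h, against 1.09 to 6.51 CPM in WT sham livers. All KO livers but replicate 1 lay above every KO sham liver, and replicate 1 lay among the WT values. The KO change was 1.75 log2 units (SE 0.55, edgeR adjusted p = 0.0189), and 1.99 without replicate 1 (adjusted p = 0.00721). Without KO 24 h replicate 3 or 4 or KO sham replicate 3 the adjusted p lay between 0.0503 and 0.0558. KO and WT livers at 24 h overlapped, and their difference of 1.38 did not pass (adjusted p = 0.127), nor did 1.62 without replicate 1 (adjusted p = 0.0597).

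Lifr stood at 57.1, 53.6, 156.2 and 116.1 CPM in KO livers at 24 h, against 147.4 to 233.7 CPM in KO sham livers. It stood at 111.3, 136.6 and 118.3 CPM in WT livers at 24 h, against 166.6 to 311.7 CPM in WT sham livers. All KO livers but replicate 3 and all WT livers lay below every sham liver of their genotype. The log2 change was -0.96 in KO livers (SE 0.33, edgeR adjusted p = 0.031) and -0.92 in WT livers (SE 0.37, adjusted p = 0.218), and the difference between these changes was -0.04 (95% interval -0.98 to 0.91). The KO call was lost without KO 24 h replicate 1 (-0.78, adjusted p = 0.0802) or replicate 2 (-0.75, adjusted p = 0.123), and without KO sham replicate 1 or 3 (adjusted p = 0.06 and 0.0559). Per kilobase, the ratio of Osmr to Lifr was 0.0848 ± 0.0456 in KO livers at 24 h and 0.0119 ± 0.0064 in KO sham livers (SD, n = 4 and 5). In WT livers it was 0.0228 ± 0.0054 at 24 h and 0.0103 ± 0.0062 in sham livers.

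Stat3 was higher in KO than in WT livers at 24 h, with 136.5, 202.2, 292.5 and 286.8 CPM in KO livers, against 133.6, 135.4 and 77.0 CPM in WT livers. The groups did not overlap, but KO replicate 1 lay just above the highest WT liver. The difference was 1.01 log2 units (SE 0.35, edgeR adjusted p = 0.0443). Against its own sham livers Stat3 changed by 0.89 in KO livers (SE 0.30, adjusted p = 0.0277) and by -0.25 in WT livers (SE 0.33, adjusted p = 0.775). Without KO 24 h replicate 1 the difference between genotypes was 1.17 (adjusted p = 0.0137). It was 0.93 without replicate 3 (adjusted p = 0.116), 0.81 without replicate 4 (adjusted p = 0.164) and 0.67 without WT 24 h replicate 3 (adjusted p = 0.218). It also missed the threshold without KO 24 h replicate 2 or WT 24 h replicate 1 or 2, with adjusted p between 0.0505 and 0.0882. The change of KO livers from sham was likewise not called without KO 24 h replicate 3 or 4 or KO sham replicate 1, 3 or 4, with adjusted p between 0.0511 and 0.137. WT 24 h replicate 3 had the lowest Stat3 of its group, and 8.93% of its counts were mitochondrial.

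Socs1 was the other gene called between the genotypes at 24 h, so that 2 of 9 were higher in KO livers, beside 11.1% of all genes. It had 0.773, 0.738, 18.6 and 2.22 CPM in KO livers, against 0.925, 0.306 and 0.153 CPM in WT livers. Replicate 3 stood far above the other KO livers, and the groups overlapped. The difference of 3.50 log2 units (SE 1.26, edgeR adjusted p = 0.0495) was 1.66 without replicate 3 (adjusted p = 0.384), and the change of KO livers from sham, 1.65 with all libraries, was -0.22 without it. Without replicate 1 it was 3.84 (adjusted p = 0.0224). Without KO 24 h replicate 4 or any one of the 3 WT livers the adjusted p lay between 0.083 and 0.157. Socs3 had 29.95, 46.0, 204.0 and 46.8 CPM in KO livers at 24 h, against 24.9, 19.5 and 25.7 CPM in WT livers. All 4 KO livers lay above the WT livers, and the difference of 1.77 missed the threshold (SE 0.66, adjusted p = 0.0589). Without replicate 3 it was 1.03 (adjusted p = 0.309), and without replicate 1 it was 1.98 (adjusted p = 0.0281).

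Pim1 and Bcl3 did not pass between the genotypes at 24 h. Pim1 had 7.73, 9.04, 23.5 and 17.1 CPM in KO livers, against 7.95, 4.95 and 9.16 CPM in WT livers. The difference of 1.09 did not pass (edgeR adjusted p = 0.14), nor did 1.24 without replicate 1 (adjusted p = 0.0863). Bcl3 had 27.5 to 66.5 CPM in KO livers and 19.4 to 46.5 CPM in WT livers, with the highest KO value in replicate 1. Il6st, at 86.4 to 117.3 CPM in KO and 84.3 to 119.9 CPM in WT livers, differed by 0.04 log2 units (95% interval -0.60 to 0.67), and Il6ra by 0.47 (-0.33 to 1.26). Without replicate 1 the differences were -0.05 for Bcl3, 0.05 for Il6st and 0.51 for Il6ra. Over the 9 genes, 3 were then higher in KO livers (Stat3, Socs3 and Socs1), beside 17.6% of all genes, and 3 rose from KO sham (Stat3, Socs3 and Osmr), beside 20.3% of all genes, while Lifr was no longer called.

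Without the 6 h sham livers, 4 genes rose in KO livers at 24 h (Osmr, Stat3, Socs3 and Socs1), beside 17.3% of all genes, and Lifr fell, beside 12.8%. Osmr then changed by 2.15 log2 units (edgeR adjusted p = 0.00384), Stat3 by 1.04 (adjusted p = 0.00268), Socs3 by 1.68 (adjusted p = 0.00714), Socs1 by 2.99 (adjusted p = 0.0171) and Lifr by -0.96 (adjusted p = 0.0408).

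**Figure D4:**
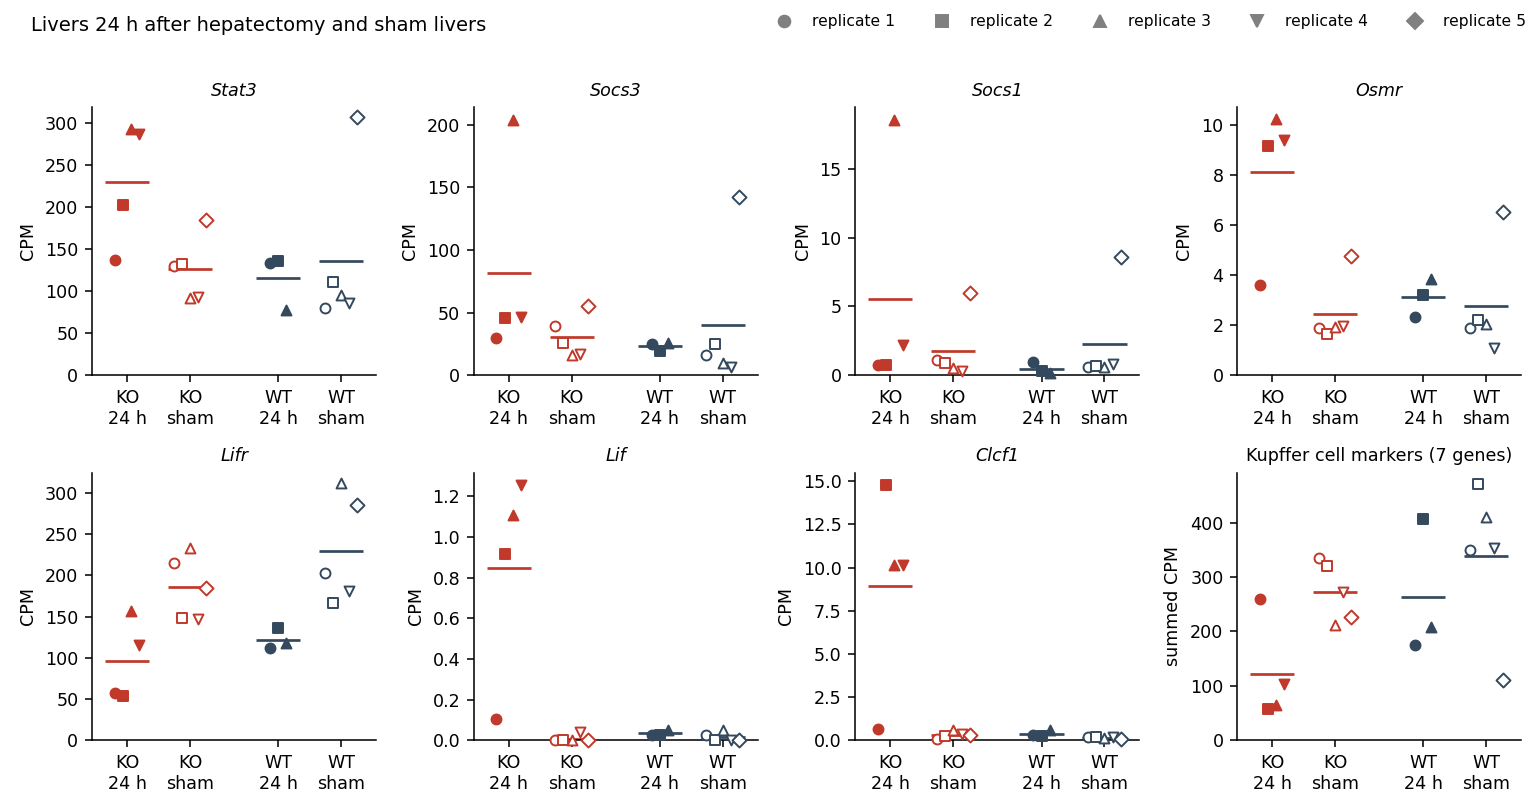
CPM of genes and summed CPM of cell type markers in livers 24 h after hepatectomy and in sham livers, KO left of WT, each point a library with its replicate given by its shape, bars for group means and open points for sham livers. KO 24 h replicate 1 lies with the WT livers for Osmr and near them for Stat3, and replicate 3 carries the highest Socs3 and Socs1.

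Cell type markers differed between the livers compared at 24 h. Of 7 Kupffer cell markers, 6 fell in KO livers at 24 h against sham, with a summed level of 260.4, 57.9, 64.1 and 104.2 CPM in replicates 1 to 4 and 212.2 to 334.8 CPM in KO sham livers. Of 6 T and NK cell markers 5 fell, and of 6 sinusoidal endothelial markers 4 fell and Lyve1 rose. Of all genes, 12.0% fell and 15.9% rose in that comparison. Against WT livers at 24 h, 3 Kupffer and 5 sinusoidal markers were lower in KO livers. The hepatocyte markers Alb and Tat and the cholangiocyte markers Sox9 and Epcam were higher. Of all 15564 genes, 1167 were lower and 1724 higher in KO than in WT livers. Ms4a1 of the B cell list fell in KO livers against sham, and the stellate cell marker Des was lower in KO than in WT livers. Hepatocyte markers summed to 84350 to 147300 CPM in KO livers and 37360 to 80580 CPM in WT livers at 24 h. Replicate 1, whose Kupffer sum lay in the sham range, was also the replicate with the lowest Osmr, Stat3 and Socs3. Without replicate 1, 6 of 7 Kupffer markers were lower in KO than in WT livers at 24 h, beside 17.4% of all genes. The part of cell makeup in these differences was not tested.

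The ligands Lif and Clcf1, which encode leukaemia inhibitory factor and a cytokine that signals through LIFR and gp130 with the CNTF receptor, were higher in KO livers at 24 h. Lif stood at 0.106, 0.916, 1.11 and 1.25 CPM in KO livers, against 0.0264, 0.0278 and 0.0509 CPM in WT livers (log2 difference 4.41, SE 1.27, edgeR adjusted p = 0.0174). Clcf1 stood at 0.633, 14.8, 10.2 and 10.2 CPM in KO livers, against 0.317, 0.250 and 0.585 CPM in WT livers (4.51, SE 0.82, adjusted p = 0.00131). Both were lowest in KO replicate 1, and no KO liver overlapped the WT livers in the CPM of either gene. For replicate 1 this rested on few reads. Its Lif had 3 reads, against 1, 1 and 2 in the WT livers. Its Clcf1 had 18 reads, against 23 in WT 24 h replicate 3, and lay above that liver only after scaling. Without replicate 1 the differences were 4.82 for Lif and 4.90 for Clcf1 (edgeR adjusted p = 0.00318 and 6.02e-06). Against KO sham livers Clcf1 changed by 4.82 (SE 0.68, adjusted p = 2.93e-05). Ebi3, another of the 5 ligands tested, fell in KO livers at 24 h against sham (-2.10, edgeR adjusted p = 0.00217). Without replicate 1, Ctf1 and Ebi3 were both called lower in KO livers. The changes were -0.835 and -2.76 against KO sham livers, and -0.902 and -1.59 against WT livers. Cntfr, the CNTF receptor, was also higher in KO than in WT livers (2.08, SE 0.54, adjusted p = 0.0102).

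At 48 h none of the 9 genes passed against sham livers in edgeR, beside 3.0% of all genes in KO and 8.29% in WT livers. At an unadjusted p under 0.05 there were 0 in KO and 1 in WT livers, and DESeq2 called 0 and 1. In KO livers at 48 h Lifr stood at 134.8 to 204.3 CPM, with a log2 change of -0.18 (95% interval -0.82 to 0.47), and the changes of the other 8 genes lay between -1.37 (Socs1) and 0.35 (Socs3). In WT livers Lifr came nearest to a call, at 122.4, 117.2, 31.7 and 178.7 CPM, against 166.6 to 311.7 CPM in WT sham livers. All but replicate 4 lay below every sham liver, and the change was -1.04 log2 units (SE 0.34, edgeR adjusted p = 0.0502). Without WT 48 h replicate 4 the adjusted p was 0.0185. Cell type markers were called in the same WT comparison. The hepatocyte markers Ass1 and Cyp2e1 fell (-1.40 and -1.82 log2 units, edgeR adjusted p = 0.00394 and 0.0023), as did the Kupffer marker Csf1r (-1.16), the sinusoidal marker Stab2 (-1.15) and the T and NK cell marker Nkg7 (-2.05), and the Kupffer marker Marco rose (1.83). Hepatocyte markers summed to 76230 to 114600 CPM in WT livers at 48 h and 78720 to 132400 CPM in WT sham livers, and sinusoidal markers to 34.5 to 82.8 CPM at 48 h and 77.5 to 185.7 CPM in sham livers. The part of cell makeup in the Lifr value was not tested. No marker was called in KO livers at 48 h. The KO minus WT difference of the changes was 0.86 (95% interval -0.04 to 1.77, adjusted p = 0.679).

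WT 48 h replicate 3 stood apart in several of these genes. Its Lifr of 31.7 CPM was the lowest of all libraries, its Socs1 of 7.56 CPM stood against 0.294 to 0.458 CPM in the other WT livers of that stage, and its Osmr of 8.25 CPM was the highest of the group. Lif at 0.904 CPM and Clcf1 at 4.19 CPM were also highest there, and over the group both rose against sham (3.73 and 3.18 log2 units, edgeR adjusted p = 0.0413 and 0.00387). Birc5, which encodes the mitotic protein survivin, rose at 48 h in KO (3.94) and WT livers (3.48). Stat3 was 106.4, 101.6, 93.3 and 95.4 CPM in KO livers at 48 h, against 189.7, 140.2, 174.2 and 108.0 CPM in WT livers, without overlap. The difference of -0.70 did not pass after adjustment (SE 0.32, unadjusted p = 0.0384, edgeR adjusted p = 0.399).

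At 7 d none of the 9 genes passed in edgeR, with 0.0% of all genes called in either genotype. At an unadjusted p under 0.05 there were 0 in KO and 1 in WT livers, and DESeq2 called 0 of the 9 in both. The log2 changes from sham lay between -0.58 (Socs1) and 0.50 (Il6ra) in KO livers and between -1.51 (Socs1) and 0.33 (Osmr) in WT livers. Socs3 was 12.3 to 23.0 CPM in KO livers and 17.3 to 28.4 CPM in WT livers at 7 d. Il6ra and Il6st came to near equal levels per kilobase, with a ratio of 0.987 ± 0.166 in KO and 1.02 ± 0.13 in WT livers at 7 d (SD, n = 3 each), against 0.584 ± 0.159 in KO and 0.599 ± 0.181 in WT sham livers (n = 5 each). In both genotypes every liver at 7 d lay above every sham liver in this ratio, which was not tested. WT 7 d replicate 3 held the highest Osmr, Stat3 and Bcl3 of its group, at 7.42, 179.6 and 83.4 CPM.

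Between the genotypes, none of the 9 genes passed in sham livers (0.276% of all genes called), at 6 h (0.116%), at 48 h (0.341%) or at 7 d (0.045%), nor averaged over the 5 stages (2.72%), by edgeR or by DESeq2. At an unadjusted p under 0.05 there were 2 of 9 at 48 h and 0 in each of the others. At 6 h all KO livers lay below all WT livers in Il6ra, Stat3, Socs3 and Socs1, 4 of 9 genes, as they did in 9.29% of all genes, and none of the 4 passed the test. Socs3 differed by -0.97 log2 units (95% interval -2.29 to 0.36, edgeR adjusted p = 0.642), Socs1 by -1.69 (-3.94 to 0.56), Stat3 by -0.47 (-1.19 to 0.26) and Il6ra by -0.36 (-1.20 to 0.48). The averaged differences were small for Il6ra, at 0.00 (-0.34 to 0.35), and Socs3, at 0.02 (-0.52 to 0.57).

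Whether the change from sham differed between the genotypes was tested as an interaction at each stage. None of the 9 genes passed in edgeR at 6 h, 48 h or 7 d, where 0.0% of all genes were called, or at 24 h, where 8.47% were. At an unadjusted p under 0.05 there were 4 at 24 h and 0 at the other stages, and DESeq2 called 1 at 24 h and 0 at the others. At 24 h the KO change exceeded the WT change by 1.80 log2 units for Pim1 (edgeR adjusted p = 0.0877), 3.91 for Socs1 (adjusted p = 0.0941), 2.10 for Socs3 (adjusted p = 0.102) and 1.14 for Stat3 (adjusted p = 0.103). Without KO 24 h replicate 1 the values passed for Pim1 (1.94, adjusted p = 0.045), Socs1 (4.24, adjusted p = 0.0457) and Stat3 (1.29, adjusted p = 0.0396), and without KO sham replicate 5 for Pim1 and Socs1 (2.27 and 5.03). That library is the KO 6 h sham liver, and leaving it out alone kept the WT one. With both left out, none of the 9 genes passed at 24 h in edgeR. Pim1 was then at 1.63 (adjusted p = 0.0697) and Socs1 at 3.53 (adjusted p = 0.102). Socs3 was at 1.13 (adjusted p = 0.284) and Stat3 at 0.74 (adjusted p = 0.197). Against later sham livers, the KO minus WT value at 6 h was -1.62 log2 units for Socs3 (unadjusted p = 0.025, adjusted p = 0.581). For Bcl3 the KO minus WT value was -1.12 (adjusted p = 0.662). At 6 h against all sham livers the KO minus WT values were -0.63 for Socs3 (95% interval -2.30 to 1.03) and -0.60 for Bcl3 (-2.07 to 0.88).

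No gene of the 9 was called between male and female livers in edgeR, beside 3.59% of all genes, with 2 at an unadjusted p under 0.05 and 0 called by DESeq2. Socs3 was 0.81 log2 units higher in males (SE 0.31, edgeR adjusted p = 0.172) and Pim1 0.59 (SE 0.25, adjusted p = 0.242). Since all livers at 6 h were male, sex and stage can be told apart there only through the later groups.

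The rest of the pathway was read from 8 lists of 74 genes. Among other receptors of the family, 3 of 4 were tested and 0 changed at 6 h against all sham livers. Against later sham livers Cntfr rose in KO livers at 6 h (1.84, edgeR adjusted p = 0.00662). Cntfr also stood 1.52 log2 units higher in the 6 h sham livers than in later ones, averaged over the genotypes. Il27ra fell in KO livers at 24 h (-1.20). Cntfr fell in WT livers at 48 h (-1.42, adjusted p = 0.0475), while Il27ra and Il11ra1 were lower and Cntfr higher in KO than in WT livers at 24 h. Of 9 kinases, phosphatases and other STATs, Ptpn2, a phosphatase that acts on JAKs and STATs, rose at 6 h by 2.11 log2 units in KO livers (SE 0.53, edgeR adjusted p = 0.0151) and 2.30 in WT livers (SE 0.53, adjusted p = 0.00926). Ptpn11, the phosphatase SHP2 that binds gp130, rose in KO livers at 6 h by 0.78 (SE 0.21, adjusted p = 0.0239), and against later sham livers in both genotypes (0.86 in KO and 0.81 in WT livers). At 24 h in KO livers Jak1, Ptpn11 and Ptpn2 rose, by 0.80, 0.92 and 1.98, and Ptpn6 and Stat5b fell, with changes of -0.88 and -0.71. The median of this list was -0.34 in that comparison, against -0.01 over all genes. Without KO 24 h replicate 1, 5 of 9 fell and 3 rose, beside 19.3% and 20.3% of all genes.

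Of 10 other SOCS and PIAS inhibitors, Pias3, which encodes an inhibitor of STAT3 binding to DNA, fell at 6 h by 1.85 log2 units in KO livers (SE 0.44, edgeR adjusted p = 0.00997) and by 1.92 in WT livers (SE 0.45, adjusted p = 0.00955). No other gene of that list changed at 6 h against all sham livers. Against later sham livers Cish and Socs2 also rose in WT livers (2.73 and 2.95). The 6 h sham livers against later ones, averaged over the genotypes, gave 3.10 for Socs2 and -1.39 for Pias3. Socs6 and Socs7 rose in KO livers at 24 h, by 1.25 and 1.05. Of 4 shedding and trafficking genes, Rhbdf2, an iRhom protein that brings ADAM17 to the surface where it can shed receptors, rose at 6 h by 1.69 in KO livers (SE 0.39, adjusted p = 0.00891) and 1.79 in WT livers (SE 0.40, adjusted p = 0.00757). Rhbdf1 rose in KO livers at 6 h and 24 h (1.39 and 2.30), and for both iRhom genes the change at 24 h differed between the genotypes. Adam10 and Adam17 were not called in these comparisons. Of the partners of BCL3, Nfkb1 and Nfkb2, which encode p50 and p52 with their precursors, rose at 6 h in both genotypes, by 0.79 and 1.37 in KO and 0.77 and 1.27 in WT livers. Pim3, a kinase of the PIM family, rose at 6 h against later sham livers (2.85 in KO and 3.02 in WT livers). It also stood 2.49 higher in the 6 h sham livers than in later ones, averaged over the genotypes.

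The STAT3-responsive lists moved unevenly. Of 14 growth and survival genes, 3 rose at 6 h in KO livers against all sham livers (Bcl2l1, Il4ra and Fos, by 1.03 to 4.02), beside 4.11% of all genes, and 6 in WT livers (Bcl2l1, Cebpb, Mcl1, Il4ra, Icam1 and Myc, by 0.65 to 2.34), beside 4.16%. Against later sham livers Bcl2l1, Cebpb, Cebpd, Il4ra, Icam1, Junb and Myc rose in both genotypes, Fos in KO livers, and Mcl1 and Vegfa in WT livers. All genes called higher there were 7.23% in KO and 10.6% in WT livers. The 6 h sham livers stood above later ones in Junb (1.82) and Cebpd (2.52), averaged over the genotypes. Bcl2l1, which encodes the survival protein BCL-XL, changed by 2.53 log2 units in KO livers (SE 0.49, edgeR adjusted p = 0.00183) and 2.34 in WT livers (SE 0.49, adjusted p = 0.0048). At 24 h 7 of the 14 rose (Bcl2l1, Cebpb, Cebpd, Il4ra, Junb, Fos and Myc, by 1.02 to 2.36), beside 15.9% of all genes, and Irf1 fell in KO livers (-1.48), beside 12.0%. In WT livers at 24 h 0 of the 14 were called, beside 0.925% of all genes called in either direction. Without KO 24 h replicate 1, 9 of the 14 rose and 3 fell in KO livers, beside 20.3% and 19.3% of all genes. The list's median at 24 h was 1.12 in KO livers and -0.27 in WT livers, against -0.01 and 0.04 over all genes. Between the genotypes at 24 h 5 of the 14 were higher in KO livers (Bcl2l1, Cebpb, Mcl1, Il4ra and Myc), beside 11.1% of all genes. Myc was 3.32 log2 units higher in KO than in WT livers (SE 0.73, edgeR adjusted p = 0.00384), and 3.58 without KO 24 h replicate 1 (adjusted p = 0.00053).

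Of 19 acute phase genes, made by hepatocytes in inflammation, none rose at 6 h in KO livers against all sham livers and 1 in WT livers (Fgg, a fibrinogen chain, by 1.24, edgeR adjusted p = 0.0453). Against later sham livers, 1 of 19 rose in KO livers (Serpina3n, by 2.13), beside 7.23% of all genes, and 7 of 19 in WT livers (Lcn2, Fga, Fgb, Fgg, Hamp, Serpina3n and Lrg1, by 1.74 to 4.21), beside 10.6%. The 6 h sham livers themselves stood above later ones in Fgg (1.13), Hamp (2.85) and Serpina3n (2.51), averaged over the genotypes. The fit against the 6 h sham livers also covered the genes of these lists, and its values for them are not given. With 1 such liver of each genotype, it cannot show the part of the hepatectomy itself in their changes at 6 h. The list's median against later sham livers was 0.21 in KO and 1.48 in WT livers, against 0.01 and 0.04 over all genes. The difference between these medians was not tested. Gene by gene, the interaction at 6 h against all sham livers called 0.0% of all genes. At 24 h Fga, Fgb and Fgg rose and Crp fell in KO livers, by 1.13, 1.21, 1.36 and -1.59. Apcs rose in WT livers at 24 h (2.49, edgeR adjusted p = 0.0442). Between the genotypes at 24 h Hamp, Fgb and Fgg were higher in KO livers (3.31, 1.32 and 1.29) and Apcs and Crp lower (-1.92 and -1.75).

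Across all 37 libraries the levels of these genes were correlated to differing degrees, given as a description since the libraries share groups and sex. Stat3 and Socs3 had the highest correlation of any pair of the 9 (Pearson r = 0.882 of log2 CPM), while Lifr had r between -0.11 and 0.504 with the others. Among 8573 genes with a mean of at least 5 CPM, the gene most like Stat3 was Tnfrsf1a (r = 0.955), a TNF receptor, and the next was Sbno2 (0.945). Those most like Socs3 were Fosl2 (0.922) and Junb (0.91), both AP-1 subunits. Osmr was most like 2010003K11Rik (0.886) and Map3k6 (0.885), Il6st like Ddi2 (0.9), Bcl3 like Hspb8 (0.916), Socs1 like Tmem39a (0.866), Pim1 like Helb (0.882) and Il6ra like Arhgef26 (0.776). Lifr was most like Pipox (0.873).

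By GENCODE M21 on GRCm38, all 9 are protein-coding. Osmr at chr15:6813577-6874969 (minus strand) and Lifr at chr15:7090614-7197489 (plus strand) lie on the same chromosome, and Stat3 at chr11:100885098-100939540 and Socs3 at chr11:117966079-117970047 lie on another. The others are Il6ra at chr3:89864059-89913196, Il6st at chr13:112464070-112510086, Socs1 at chr16:10782240-10785536, Bcl3 at chr7:19808462-19822770 and Pim1 at chr17:29490753-29496112. Exons of 4 of them overlap a gene on the other strand. Stat3 shares 72 bases with Stat5a, which had 9012 counts in all libraries, against 192888 of Stat3. Il6ra shares 242 bases with Gm42809, Pim1 488 with Gm26885 and Bcl3 161 with Gm16175, which had 639, 509 and 0 counts in all libraries. Whether counting used the strand is not given in the sources used here, so reads in the shared bases may be split between partners.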

How the data were processed

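Frozen liver pieces were the source of total RNA, and libraries were made with a stranded mRNA kit, per the labels' protocols. The authors deposited 1 table of estimated counts per gene for 37 libraries, here whole numbers and so used without rounding. STAR 2.5.3a, RSEM 1.3.0 and build GRCm38 are named in the submitters' processing notes, which do not say which tool made the counts. The annotation release, strand setting and any filter are not given in the sources used here. All 9 gene identifiers matched GENCODE M21.

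Counts were tested with edgeR 4.0.16 (R 4.3.3): TMM scaling, filterByExpr over 10 groups of genotype and stage (15564 genes kept), a robust quasi-likelihood fit with sex as an additive term, and Benjamini-Hochberg adjustment over all genes, called at 0.05. The common biological coefficient of variation was 0.39. Intervals are at 95%. CPM are TMM-scaled, and CPM per kb divide by merged exon length. The script was tested on simulated counts. Alternatives were DESeq2 1.42.0, RLE scaling, no filter beyond 1 count, no sex term, compared groups alone, males alone, later sham livers alone and each library left out. A fit with the 6 h sham livers as groups of their own was added after the data were seen. Likeness is Pearson's r of log2 CPM with a prior count of 2. By rule the 9 genes are read in every comparison, by value or by range. Genes in 8 pathway lists and 9 marker lists that passed the test are named only in part, so a list gene left unnamed may also have passed. Members and lists were chosen with earlier results of these data known. Replicate numbers follow accession order and pair nothing. Totals of 26232544 to 48827025 counts leave counting error small for all but Socs1, Osmr and the ligands.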

Additional observations from a re-analysis of the deposited data

Results flagged for a closer look

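Of 45 groups of 4 or 5 libraries, 15 held a highest or lowest library whose gap to the next exceeded Dixon's 95% critical value, where chance gives about 5%. Most were the 6 h liver of a sham group, replicate 5: in KO sham livers Osmr at 4.76, Socs1 at 5.98, Bcl3 at 116.8 and Pim1 at 31.9 CPM, and in WT sham livers Osmr at 6.51, Stat3 at 306.7, Socs3 at 142.6, Socs1 at 8.58, Bcl3 at 170.7 and Pim1 at 53.5 CPM. In KO livers at 24 h, replicate 3 stood apart in Socs3 at 204.0 CPM and Socs1 at 18.6 CPM, and replicate 1 was far below the others in Osmr at 3.62 CPM. In WT livers at 48 h, replicate 3 stood apart in Socs1 at 7.56 CPM. In KO livers at 48 h, replicate 2 stood apart in Il6ra at 64.6 CPM.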

How the results depend on the processing

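No paired analysis was possible because replicate numbers come from accession order. Each count is of the 9 genes. At 6 h in KO livers (2) it was 1 with RLE scaling, 4 with no filter on counts, 7 with later sham livers only, and 0 in males alone, in the compared groups alone and against the 6 h sham alone. At 6 h in WT livers (4) it was 8 without the 6 h sham livers and 0 under those last 3 settings. At 24 h in KO livers (3) it was 5 with no filter or without the 6 h sham livers, 1 in the compared groups alone and 0 in males. Between genotypes at 24 h (2) it was 5 with no filter and 0 with RLE scaling, with no sex term, in males or in the compared groups alone. From 0, no filter gave 2 for KO 48 h and WT 24 h, 1 for WT 48 h, WT 7 d, the genotypes at 6 h and 48 h, the interaction at 48 h and the averaged 6 h sham comparison, 3 for sex and 4 for the interaction at 24 h. DESeq2 gave 1 for WT 24 h, WT 48 h and the interaction at 24 h, and RLE scaling and no sex term gave 1 each for WT 48 h. In males alone 2 of 6 were called for the 6 h against later sham livers, and 3 of 7 and 3 of 8 at 6 h against later sham livers in KO and WT livers. Leaving out 1 library in turn gave 0 to 3 at 6 h and 0 to 5 at 24 h in KO livers, 0 to 8 at 6 h and 0 to 1 at 48 h in WT livers, 0 to 3 between genotypes at 24 h and for the interaction there, 0 to 1 for sex, 0 to 7 for the 6 h against later sham livers, and 3 to 8 in KO and 7 to 8 in WT livers at 6 h against later sham livers, and 0 to 0 in every other comparison. Socs1 turned sign in uncalled comparisons: its log2 change for KO 24 h ran between -0.22 without KO 24 h replicate 3 and 2.77 over the libraries left out, the difference between genotypes at 48 h between -2.90 and 0.70 (without WT 48 h replicate 3) and the interaction at 48 h between -3.14 and 1.13 (without the same library). It was 0.15 for WT 7 d with later sham livers only, and 0.58 and 1.47 in males for the genotypes and the interaction at 48 h. Of 3942 log2 changes, 292 turned sign under an alternative, 0 of them past the threshold. On the library total, 23 of 90 group means moved by more than their SD, with RLE scaling 0. Over all genes, calls between genotypes at 24 h ran between 0 in the compared groups alone and 5452 without KO 24 h replicate 1, with 2891 in the reported fit. The causes of these moves were not tested.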
